A study of Homo sapiens with 6 samples.

Results

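The 39 HOX genes of the A, B, C and D clusters were examined in RNA sequencing of U87-MG cells, an established human glioma line. They were the genes whose symbol is HOX, a cluster letter from A to D and a number, and they made up 39 of the 61806 genes in the deposited table. Each group had 3 libraries. The NC libraries were labelled wildtype and came from the negative control, and the other libraries were labelled GRIK1 siRNA with the genotype GRIK1 knockdown. The design text of the series names an shRNA and the sample titles name an siRNA, and the labels do not say whether siRNA1, siRNA2 and siRNA3 are cultures or siRNA sequences. All 6 libraries came from 1 cell line, and no label ties a library to a separate culture, so p-values measure only the spread between these libraries, which may be technical.

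HOX genes encode homeodomain transcription factors that tell cells of the embryo where they lie along the body axis. Genes at the 3′ end of a cluster pattern the hindbrain and neck, genes toward the 5′ end pattern the trunk, limbs and tail, and a cell keeps its combination as a memory of position through Polycomb and Trithorax proteins. The developing forebrain uses almost no HOX genes, while gliomas and their cell lines often express them. Genes with the same number in different clusters are paralogs that arose from cluster duplication, and HOX proteins bind DNA together with PBX and MEIS partners.

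The HOXA cluster spanned chr7:27092993-27200091 with 11 genes, the HOXB cluster chr17:48528526-48728750 with 10, the HOXC cluster chr12:53938831-54056030 with 9 and the HOXD cluster chr2:176092721-176190907 with 9 (GRCh38). All members share the homeobox, the 180 coding bases that give the family its name. A stretch of 27 bases that encodes part of the third helix of the homeodomain, which contacts DNA, shows how alike members are where reads have to be told apart. It was read from GENCODE 29 transcripts and is given for the highest gene, HOXD10, for its paralogs HOXA10 and HOXC10, for the most abundant genes of the other clusters, and for the 2 members that differed most between the groups. Capitals mark bases that differ from HOXD10, in the coding direction of each gene:
HOXD10: tggtttcaaaaccgccgaatgaaactc
HOXC10: tggtttcaaaaTcgcAgaatgaaactc
HOXA10: tggtttcaGaaccgcAgGatgaaactG
HOXB2: tggtttcaGaaccgGcgCatgaaGcAc
HOXA5: tggttCcaaaaccgGAgaatgaaGTGG
HOXC6: tggttCcaGaaccgccgGatgaaGTGG
HOXB7: tggtttcaGaaccgGcgCatgaaGTGG
HOXD13: tggtttcaGaaccgAAgaGtgaaGGAc

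These stretches lie in the last exon of their genes: HOXD10 exon 2 at chr2:176119145-176119171 on the plus strand, HOXC10 exon 2 at chr12:53989360-53989386 (plus), HOXA10 exon 2 at chr7:27171959-27171985 (minus), HOXB2 exon 2 at chr17:48543545-48543571 (minus), HOXA5 exon 2 at chr7:27141898-27141924 (minus), HOXC6 exon 2 at chr12:54029816-54029842 (plus), HOXB7 exon 2 at chr17:48607920-48607946 (minus) and HOXD13 exon 2 at chr2:176094665-176094691 (plus). HOXC10 differed from HOXD10 at 2 of the 27 bases and HOXA10 at 4, whereas HOXA5 and HOXD13 differed at 7 each. Over the whole homeobox, the identity between genes of the same paralog group had a median of 81.7% over 42 pairs, and between genes of different groups 60.6% over 699 pairs. The ranges, 69.4% to 90.6% and 47.8% to 91.1%, overlapped. The most alike pair, HOXA6 and HOXA7, was of different groups. The longest exact stretch shared by whole transcripts, homeobox included, of HOX genes on different clusters was 62 bases, between HOXB3 and HOXD3, and 1 of 569 such pairs shared 50 bases or more.

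Total counts per library lay between 11099909 and 14006968. The targeted gene, GRIK1, was not lower in the libraries labelled GRIK1 siRNA. Its FPKM was 0.38, 0.19 and 0.13 in NC against 0.29, 0.37 and 0.36, a difference of 0.12 on log2(FPKM + 1), siRNA minus NC (two-sided exact permutation test, p = 0.4, with 0.1 the smallest p that 3 against 3 libraries allow). NC library 3 stood apart, with correlations of 0.964 and 0.968 to the other NC libraries on log2 CPM, while those correlated at 0.990 with each other. Of the 8 glial or glioma markers, VIM, CD44 and TNC were above 1 FPKM on average, and GFAP, S100B, SOX2, NES and OLIG2 were below 1. The 3 oligodendrocyte and 3 endothelium markers were at or near 0, with sums of at most 0.12 and 0.080 FPKM in a library. Of 4 neuron markers, RBFOX3 and STMN2 were near 0, SYT1 was at 0.40 FPKM in NC and 0.79 in the other group, and SNAP25 at 1.91 and 1.49 (summed, 1.91 to 2.81 in the NC libraries and 2.47 to 2.62). Of 4 leukocyte markers, PTPRC and AIF1 were near 0, CSF1R was at 1.06 and 1.10, and CD68 at 2.80 and 3.74 (summed, 3.36 to 4.27 and 4.70 to 5.13, without overlap). Of 3 epithelium markers, EPCAM was at 1.20 and 1.85, and CDH1 and KRT18 were below 1 (summed, 1.67 to 2.56 and 2.05 to 3.03). The summed FPKM of 4 fibroblast markers ranged from 43.1 to 115 in NC and from 257 to 290 in the other group, carried by COL1A1, with PDGFRA near 0. The part of the fibroblast and leukocyte marker shifts in the HOX differences was not tested.

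In NC, U87-MG cells expressed HOX genes of all 4 clusters. A mean FPKM (fragments per kilobase of exon at a common library size, so a level per length) of at least 1 was reached by 17 of the 39 genes, of which 4 lie in HOXA, 4 in HOXB, 3 in HOXC and 6 in HOXD. At the other end, 11 genes had at most 3 counts in each of the 6 libraries, and HOXB1 and HOXC12 had 0 counts in all, where a count of 0 allows up to 3 counts in a library (95% limit, counting error only). As a whole the family was a small part of the transcriptome, with 0.017% to 0.024% of all counts in each library.

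HOXD10, which patterns the lumbar spinal cord and hindlimb, had the highest NC mean at 9.89 ± 2.82 FPKM (SD, n = 3). HOXD8, a trunk-level gene, followed at 9.68 ± 1.40, and HOXB2, a hindbrain gene, at 8.72 ± 0.36. The libraries' ranges of these 3 genes overlapped, so their order is not resolved, while the lowest HOXB2 library (8.34) lay above the highest library of the next gene, HOXD9 (6.73).

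From HOXD9 at 5.90 ± 1.41 down through HOXB3 (5.46 ± 2.15), HOXA5 (4.94 ± 0.40), HOXC6 (4.70 ± 1.11), HOXD11 (4.35 ± 0.32), HOXB4 (3.91 ± 1.51), HOXB7 (3.87 ± 0.75), HOXD4 (3.24 ± 1.39) and HOXD13 (2.74 ± 0.43), each gene's range of libraries overlapped that of the next. HOXA4, HOXC4, HOXA3 and HOXC8 followed between 2.08 and 1.04 FPKM, again with overlapping neighbours. HOXA11, at 0.97 ± 0.18, fell just under 1 FPKM.

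Each cluster had its own pattern of counts. Some low rows overlap others on the same strand: HOXA6 with HOXA3, HOXA9 with HOXA10, HOXB5 and HOXB6 with HOXB3, and HOXC5 with HOXC4. So do HOXB8 and HOXB9 with HOXB7, HOXC9 with HOXC6, HOXC10 with ENSG00000273049, and HOXD3 with HOXD4. How reads in shared stretches were counted is not given in the sources used here. Low counts in such rows may therefore understate the RNA. In HOXA, the 3′ genes HOXA3 (1.77 FPKM), HOXA4 (2.08) and HOXA5 (4.94) were on, HOXA2 was low (0.40), and the signal then stopped. HOXA6 had 0 to 6 counts in a library, and HOXA7, HOXA9 and HOXA10, the last 2 known as targets of MLL fusions in leukaemia, had 0 to 2. HOXA11, a gene of the forearm and uterus, stood 5′ of this block of low counts with 26 to 35 counts in the NC libraries, and HOXA13 had 0 counts in NC and 1 in a single library of the other group. HOXA thus had an active 3′ part, a middle near 0 and a low HOXA11.

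In HOXB, the run from HOXB2 (8.72 FPKM) over HOXB3 (5.46) to HOXB4 (3.91), genes of hindbrain and blood progenitors, fell step by step to HOXB5 (0.55) and HOXB6 (0.68), and HOXB7 rose above them again at 3.87. HOXB1, the gene of a single hindbrain segment, was not detected, and HOXB8 and HOXB9 had at most 5 counts in a library. HOXB13, which is known from prostate and tail bud, had 4 to 12 counts and a mean of 0.30 FPKM in NC.

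In HOXC, HOXC6 (4.70 FPKM), HOXC4 (1.97) and HOXC8 (1.04), genes of the neck and thorax, carried nearly all of the signal. HOXC9, HOXC10, HOXC12 and HOXC13 had at most 4 counts in a library, and HOXC11 had 3 to 12.

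In HOXD, the order was turned toward the 5′ end. HOXD1 and HOXD3 were at 0.06 and 0.26 FPKM, HOXD4 was at 3.24, and the block HOXD8 to HOXD11 lay between 4.35 and 9.89. HOXD12 was near 0 (0.08) between HOXD11 and HOXD13, and HOXD13, the gene of the digits, was at 2.74. HOXD supplied 45.1% ± 2.36 of the summed HOX FPKM in NC, HOXB 29.2% ± 2.39, HOXA 15.6% ± 1.12 and HOXC 10.1% ± 1.10 (SD, n = 3). HOXD held 9 of the 39 genes.

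**Figure D1:**
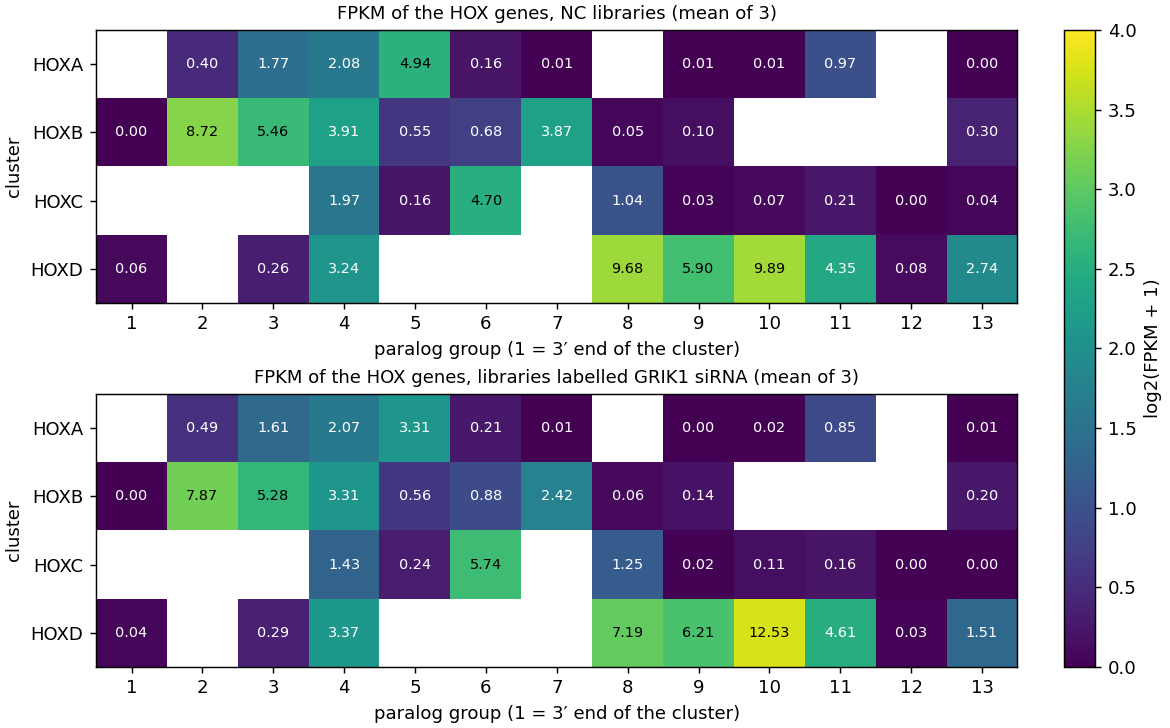
Mean FPKM of HOX genes by cluster (rows) and paralog group (columns), for the 3 NC libraries (top) and the 3 libraries labelled GRIK1 siRNA (bottom), coloured by log2(FPKM + 1), with white for positions without a gene or not shown. HOXD8 to HOXD11 and HOXB2 to HOXB4 form the bright blocks, HOXA7 to HOXA10 are dark between HOXA5 and HOXA11, and the same positions reach 1 FPKM in both panels.

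By paralog group, the NC sum over clusters was highest in group 4 (11.2 ± 3.46 FPKM), group 8 (10.8 ± 1.08) and group 10 (9.98 ± 2.84), with group 2 next (9.12 ± 0.50). The libraries' ranges of groups 4, 8 and 10 overlapped each other, and those of groups 4 and 10 also overlapped group 2. In NC library 3, groups 8 and 2 (11.83 and 8.55 FPKM) stood above groups 4 and 10 (7.27 and 6.70), so the order is resolved only between group 8 and group 2. Group 4 was the one in which all 4 members were above 1 FPKM. In group 10, HOXD10 was nearly the only member, since HOXC10 had 1 to 4 counts in a library and HOXA10 0 to 2, although their homeoboxes were 82.8% and 77.8% identical to that of HOXD10. Group 12 was at 0.083 ± 0.015 FPKM.

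Start-site sequence was set beside these levels. RefSeq windows of 300 bases (250 before and 50 after the start) on GRCh38.p14 matched 20 of the 39 HOX genes, with 27 windows. They were rich in CG dinucleotides, with a median of 22 per window against 14 over all 35116 windows. The window richest in CG held a median of 24 for the 9 matched genes whose level averaged 0.5 FPKM or more and 25 for the 11 matched genes below that. The ranges of the 2 sets, 4 to 34 and 11 to 44, overlapped. The gene with the highest level (HOXD10, 23 CG), the gene with the largest difference between groups (HOXD13, 24) and a gene of the low-count middle of HOXA (HOXA7, 31) are shown, 5′ to 3′ on the strand of the gene, with each CG in capitals:
HOXD10 (chr2:176116528-176116827, plus): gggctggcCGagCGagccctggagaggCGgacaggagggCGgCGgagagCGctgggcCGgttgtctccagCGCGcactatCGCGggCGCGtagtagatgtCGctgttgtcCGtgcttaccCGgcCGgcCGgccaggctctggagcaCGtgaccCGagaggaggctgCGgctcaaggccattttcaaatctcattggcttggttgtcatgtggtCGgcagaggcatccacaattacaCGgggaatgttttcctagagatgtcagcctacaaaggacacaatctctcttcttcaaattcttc
HOXD13 (chr2:176092471-176092770, plus): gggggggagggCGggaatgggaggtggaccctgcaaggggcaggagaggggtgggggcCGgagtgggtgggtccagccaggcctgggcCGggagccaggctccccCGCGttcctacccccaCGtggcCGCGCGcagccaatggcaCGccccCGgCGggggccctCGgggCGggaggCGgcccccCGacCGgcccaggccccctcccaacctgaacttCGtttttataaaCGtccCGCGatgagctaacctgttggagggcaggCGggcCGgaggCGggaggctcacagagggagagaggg
HOXA7 (chr7:27156626-27156925, minus): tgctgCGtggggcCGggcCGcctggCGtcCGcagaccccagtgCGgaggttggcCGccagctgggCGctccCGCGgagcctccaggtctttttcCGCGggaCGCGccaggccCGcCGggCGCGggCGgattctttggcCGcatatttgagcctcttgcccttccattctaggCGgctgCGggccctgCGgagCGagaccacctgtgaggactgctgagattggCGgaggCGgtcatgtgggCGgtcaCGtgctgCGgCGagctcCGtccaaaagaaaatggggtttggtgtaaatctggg

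The letters TATAAA, searched on both strands, were in the windows of HOXD13, HOXA3, HOXA9 and HOXA10 (5 of 27 HOX windows, 18.5%, against 11.5% of all windows). TGATNNAT, which takes in the letters bound by HOX proteins with PBX, was in those of HOXA2, HOXB1 and HOXD11 (11.1% of HOX windows against 7.40% of all). These matches describe letters and not binding.

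The comparison of the libraries labelled GRIK1 siRNA with NC asked whether the HOX combination shifted. The same number of genes, 17, had a mean of at least 1 FPKM in both groups, with 4, 4, 3 and 6 in HOXA to HOXD. In NC the summed HOX FPKM was 86.1, 88.1 and 67.5, and the libraries labelled GRIK1 siRNA had 77.4, 74.9 and 76.4. On FPKM, NC library 3 was thus the lowest of the 6 and the groups overlapped. FPKM is scaled by library total alone. The fit below also used TMM factors, 0.892 for NC library 3 and 1.007 to 1.033 for the others, which raise NC library 3 relative to them. The sums were not compared on that scale, where order and overlap may differ. Among the clusters, HOXA alone did not overlap on FPKM, with 13.55, 12.71 and 11.25 in NC and 10.98, 10.41 and 10.95 in the other group. HOXD was at 36.2 ± 3.80 and 35.8 ± 1.93, HOXB at 23.6 ± 4.93 and 20.7 ± 0.52, and HOXC at 8.22 ± 1.94 and 8.95 ± 0.51.

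**Figure D2:**
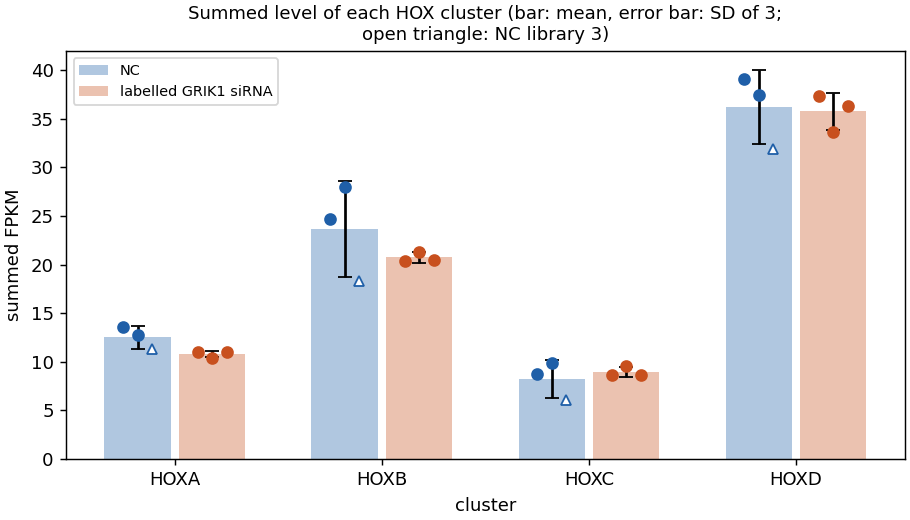
Summed FPKM of the genes of each HOX cluster (y axis) in NC and in the libraries labelled GRIK1 siRNA, with bars for the mean of 3 libraries, error bars for the SD and points for libraries. HOXD is the highest in both groups, and NC library 3 (open triangle) is the lowest NC library in each cluster.

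The filter of the test, an average of 0.5 FPKM across all libraries, was passed by 20 HOX genes. With edgeR, 0 of 20 had an adjusted p under 0.05, against 3.08% of the 15868 genes tested, and 0 of 20 also passed a log2 fold change of 1, against 1.41%. At an unadjusted p under 0.05, 5 were lower (13.2% of all genes were) and 0 higher (12.0%). By DESeq2, 2 were lower at an adjusted p under 0.05 (5.17% of all genes), by edgeR without the filter 1 (1.98%), and by limma 0. The median log2 fold change of the 20 was -0.09, with 13 below 0 (51.4% of all genes were) and 7 above, beside a median of -0.02 over all genes. The depth and spread left room for moderate differences, since 15 of the 20 intervals lay inside a log2 fold change of -1 to 1 and 5 did not. In bulk RNA, fewer cells with a gene on and less RNA per cell cannot be told apart.

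**Figure D3:**
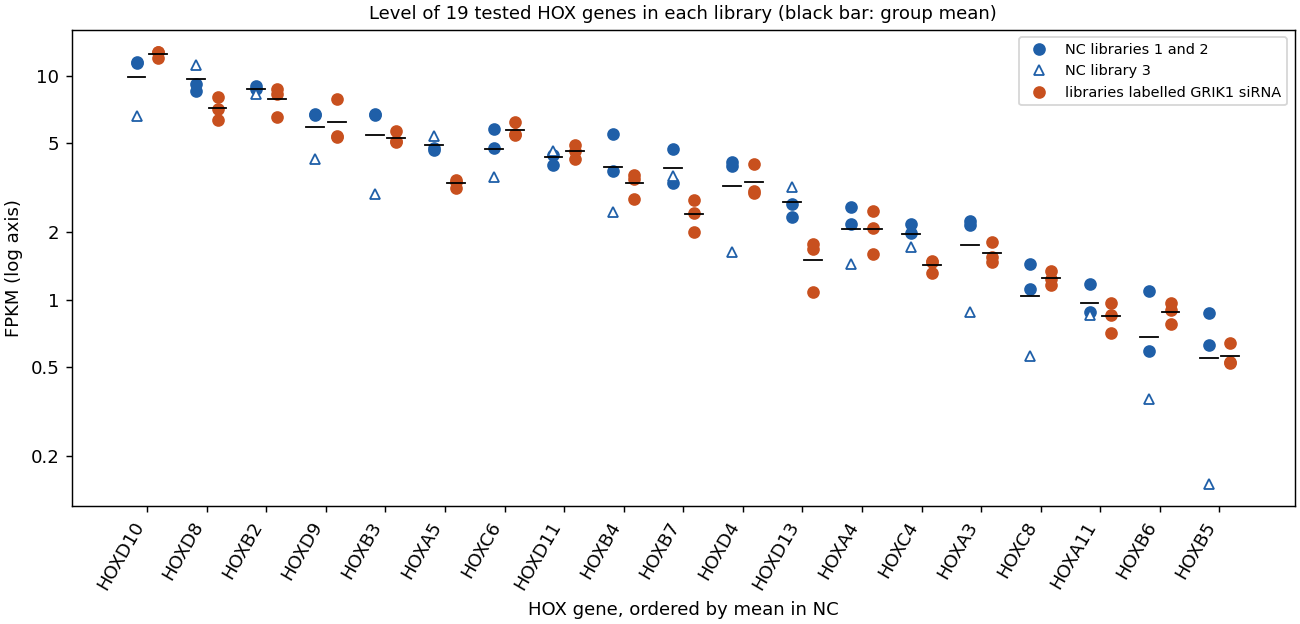
FPKM of 19 tested HOX genes in each library (y axis, log scale), ordered by NC mean, with the group mean as a black bar. NC library 3 (open triangle) lies below the other NC libraries for HOXB3, HOXA3, HOXD4 and HOXD10 and above them for HOXD8, HOXA5 and HOXD13, and the libraries labelled GRIK1 siRNA lie below all NC libraries for HOXA5, HOXB7, HOXC4, HOXD8 and HOXD13.

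The members HOXD13, HOXB7, HOXA5, HOXC4 and HOXD8, were those with intervals wholly below 0 (5 of 20), spread over all 4 clusters and from group 4 to group 13. HOXD13 had the largest difference, with an FPKM of 2.68, 2.34 and 3.19 in NC against 1.77, 1.08 and 1.69. All 3 of the latter were below all NC libraries. The log2 fold change (siRNA minus NC) was -0.95 ± 0.27 (SE), with an adjusted p of 0.0935 by edgeR and 0.0291 by DESeq2, and without the filter on low genes edgeR gave -0.99 with an adjusted p of 0.0375.

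HOXB7, a thoracic gene often expressed in tumours, had 3.32, 4.73 and 3.57 FPKM in NC and 2.02, 2.45 and 2.79 in the other group. The groups did not overlap, at a log2 fold change of -0.76 ± 0.23 (edgeR, adjusted p = 0.105). Its row overlaps HOXB8 and HOXB9 on the same strand, so reads of these genes could not be assigned with certainty. HOXB8 and HOXB9 together had at most 8 counts in a library, which does not show how many shared reads were left uncounted.

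HOXA5, a gene of the neck and lung, was at 4.77, 4.65 and 5.40 FPKM in NC and at 3.15, 3.36 and 3.43 in the other group. The groups were far apart relative to their spread, and the log2 fold change was -0.67 ± 0.18 (adjusted p = 0.0853 by edgeR and 0.0447 by DESeq2). HOXA5 lies within the long HOXA3 row and opposite HOXA-AS3.

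HOXC4 had 1.99, 2.18 and 1.73 FPKM in NC and 1.49, 1.32 and 1.48 in the other group, without overlap (log2 fold change -0.54 ± 0.18, edgeR, adjusted p = 0.129), in a row that overlaps HOXC5 and HOXC6. HOXD8 had 9.25, 8.55 and 11.24 FPKM against 7.09, 6.39 and 8.09, without overlap (-0.53 ± 0.19, edgeR, adjusted p = 0.144). For HOXD8 the NC mean rests partly on NC library 3, and without it the log2 fold change was -0.33 ± 0.11.

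On normalised CPM (library-size-scaled counts after TMM normalisation), the groups did not overlap for 6 members that were lower, the 5 above and HOXB2 (19.0% of all genes), and for 1 that was higher, HOXD10 (19.4%). HOXD10 had 11.48, 11.56 and 6.63 FPKM in NC against 12.01, 12.77 and 12.81. Its NC libraries 1 and 2 were close to the other group and NC library 3 was far below, at a log2 fold change of 0.27 ± 0.18 (edgeR, adjusted p = 0.374) and 0.10 ± 0.09 without that library. HOXB2 was at 9.06, 8.75 and 8.34 FPKM and at 8.78, 8.29 and 6.53 (log2 fold change -0.24 ± 0.15, edgeR, adjusted p = 0.346).

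The other 13 members overlapped between groups. Log2 fold changes close to 0 were found for HOXD9 (0.00 ± 0.22), HOXD4 (0.00 ± 0.33) and HOXD11 (-0.01 ± 0.17), with 95% intervals from -0.51 to 0.51, from -0.76 to 0.77 and from -0.40 to 0.38. The sign of each of these 3 turned under at least 1 alternative setting. HOXB5, the weakest gene tested, gave the widest interval, from -1.19 to 1.20, on 4 to 18 counts in a library. HOXC6 (0.21 ± 0.17), HOXC8 (0.20 ± 0.32) and HOXB6 (0.32 ± 0.39) were above 0 without passing the test, and HOXB4 (-0.30 ± 0.27), HOXA11 (-0.28 ± 0.25), HOXA3 (-0.19 ± 0.31), HOXB3 (-0.11 ± 0.25) and HOXA4 (-0.07 ± 0.27) below it. The signs of HOXA3, HOXA4, HOXB3, HOXB5 and HOXC8 also turned under some setting. Leaving out a library moved HOXB6 between 0.036 and 0.81, HOXC6 between 0.093 and 0.36 and HOXB4 between -0.51 and -0.0079.

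NC library 3 moved the HOX genes in both directions. On normalised CPM it was below all 5 other libraries for 9 of the 20 genes (35.8% of all genes were) and above them for 5 (35.5%). HOXB5 stood there at 23.2% of the mean of NC libraries 1 and 2, HOXA3 at 45.0%, HOXD4 at 45.9% and HOXB3 at 50.4%, while HOXD13 stood at 144%, HOXD8 at 143% and HOXA5 at 130%. The low genes took in paralog groups 3 to 10 and the high ones groups 2 to 13.

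Without NC library 3, edgeR gave an adjusted p under 0.05 for 8 HOX genes that were lower and 0 that were higher, against 18.3% and 16.9% of all genes, and 0 of the 8 passed a log2 fold change of 1 (1.00%). They were HOXB7 (-0.76 ± 0.22, adjusted p = 0.0134), HOXD13 (-0.75 ± 0.23, 0.0145), HOXC4 (-0.57 ± 0.20, 0.0328), HOXA5 (-0.53 ± 0.16, 0.0170), HOXB4 (-0.51 ± 0.18, 0.0408), HOXA3 (-0.48 ± 0.16, 0.0226), HOXB3 (-0.37 ± 0.08, 0.00146) and HOXD8 (-0.33 ± 0.11, 0.0305). The median over the 20 genes was then -0.30, beside 0.01 over all genes. HOXB3 shows what the library decides: it had 6.73 and 6.67 FPKM in NC libraries 1 and 2, 2.98 in NC library 3, and 5.11, 5.06 and 5.67 in the other group. Leaving out any other library left 0 genes of the whole table with an adjusted p under 0.05 (edgeR), with 2239 to 4433 at an unadjusted p under 0.05, so those fits cannot show whether a HOX call would hold.

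**Figure D4:**
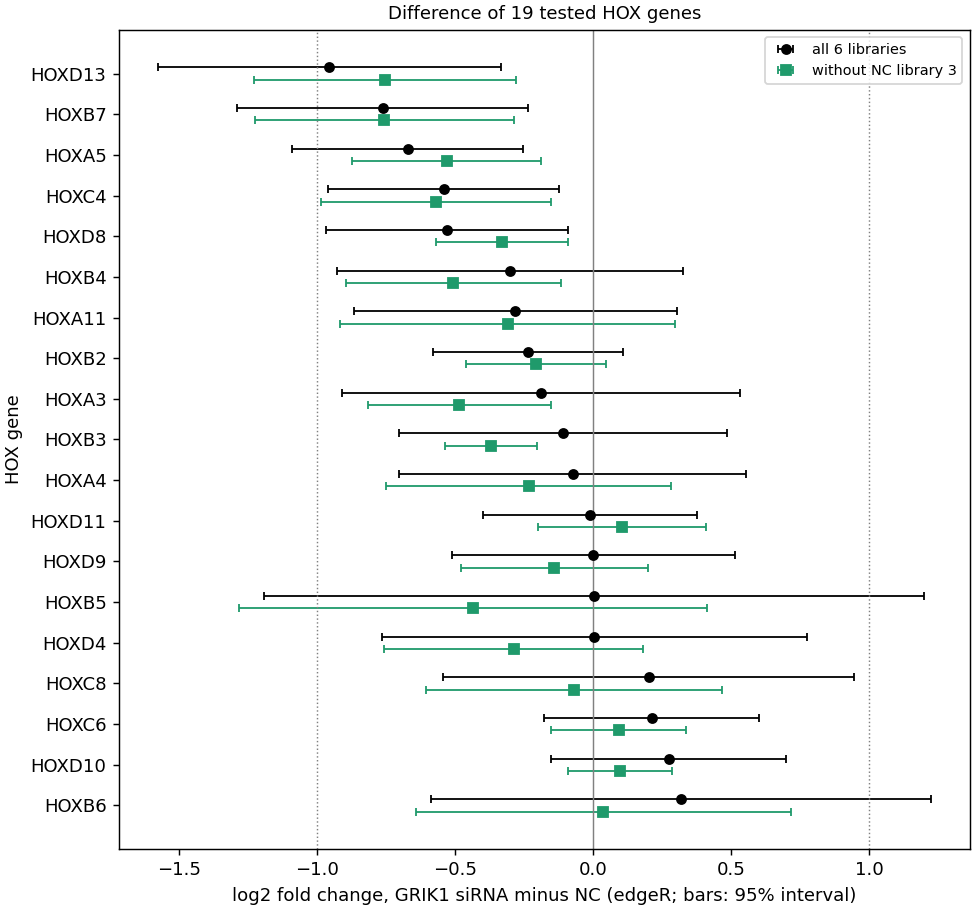
Log2 fold change of 19 tested HOX genes (siRNA minus NC, edgeR) with 95% intervals, from all 6 libraries (black circles) and without NC library 3 (green squares). HOXD13, HOXB7, HOXA5, HOXC4 and HOXD8 lie below 0 in both fits, and HOXB3, HOXA3 and HOXB4 have intervals that exclude 0 only in the fit without that library.

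The 19 HOX genes below the filter had at most 24 counts in a library (HOXA2). Of them, 17 could be fitted when the filter was dropped, and 0 had an adjusted p under 0.05 and 0 an unadjusted p under 0.05 (edgeR). Differences of these genes were not detectable at this depth.

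The other RNAs made in the clusters were followed as well. Of 66 further rows inside the clusters, or within 10 kb of them, 36 had 0 counts in all libraries and 10 could be tested, with 0 at an adjusted p under 0.05 (edgeR). HOTAIRM1, a noncoding RNA of the 3′ end of HOXA that is known from myeloid cells, was higher per length than any HOX gene, at 28.5 ± 6.85 FPKM in NC and 28.4 ± 1.41 in the other group (log2 fold change -0.07 ± 0.16). HOXB-AS1, opposite HOXB2 and HOXB3, was at 5.30 ± 2.18 and 3.65 ± 0.83 FPKM (-0.59 ± 0.32), and HOXD-AS2, opposite HOXD8 and HOXD9, at 4.49 ± 0.14 and 3.24 ± 1.02 (-0.56 ± 0.23, edgeR, adjusted p = 0.188). HOTAIR, the HOXC noncoding RNA known for its ties to Polycomb, was at 1.91 ± 0.85 and 2.38 ± 0.17 FPKM (0.27 ± 0.31), and HAGLR in HOXD at 1.54 ± 0.17 and 2.03 ± 0.13 (0.31 ± 0.17).

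HOXA-AS2 (-0.67 ± 0.33), HOXA11-AS (-0.45 ± 0.37), ENSG00000260597 (0.81 ± 0.38), ENSG00000274817 (-1.59 ± 1.59) and MIR10B (-0.16 ± 0.99) completed the 10, the last 2 on at most 6 and 2 counts in a library. Without NC library 3, HOTAIRM1 (-0.22, adjusted p = 0.0343), HOXA-AS2 (-0.95) and HOXB-AS1 (-0.86) were lower at an adjusted p under 0.05 by edgeR. These were 3 of the 10, and 0 were higher, against 18.3% and 16.9% of all genes. The signs of HOTAIR (-0.035) and MIR10B (0.17) turned in that fit. In NC library 3 the HOTAIR level was 0.93 FPKM, while NC libraries 1 and 2 had 2.31 and 2.48. Antisense RNAs overlap their partners, and whether the counting used strand is not given in the sources used here, so reads of HOXD8 and HOXD-AS2, for example, could not be told apart with certainty.

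The clusters also hold microRNA genes, whose mature forms target HOX transcripts. Of 8 precursors, 7 had 0 counts in every library and MIR10B had 0 to 2, and libraries of long RNA do not measure mature microRNAs. Mature 5p sequences from RefSeq (GRCh38.p14) for the conserved miR-10 and miR-196 families show that miR-196a and miR-196b share a seed (bases 2 to 8, in capitals) and miR-10a does not. hsa-miR-10a-5p lies at chr17:48579904-48579926 (minus) in HOXB, hsa-miR-196a-5p at chr17:48632532-48632553 (minus) in HOXB and at chr12:53991762-53991783 (plus) in HOXC, and hsa-miR-196b-5p at chr7:27169528-27169549 (minus) in HOXA:
hsa-miR-10a-5p: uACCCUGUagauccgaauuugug
hsa-miR-196a-5p: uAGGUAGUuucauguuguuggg
hsa-miR-196b-5p: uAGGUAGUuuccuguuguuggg

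The nearest protein-coding genes outside the clusters were examined beside the members. Of these 16 genes, 11 were tested, and 2 had an adjusted p under 0.05 (edgeR, 3.08% of all genes). Log2 fold changes were below 0 for 10 (51.4% of all genes) and above for 1, with a median of -0.28. The groups did not overlap for 4, all lower (19.0% of all genes). Without NC library 3, 6 were lower and 1 higher at an adjusted p under 0.05 (edgeR), against 18.3% and 16.9% of all genes. SKAP2, an adaptor gene 3′ of HOXA, was 20.98 ± 0.30 FPKM in NC and 12.96 ± 0.54 in the other group (log2 fold change -0.78 ± 0.11, edgeR, adjusted p = 0.0292), and CBX5, the heterochromatin protein HP1 alpha beyond HOXC, was 11.26 ± 0.39 and 7.80 ± 0.24 (-0.62 ± 0.12, adjusted p = 0.0434). SKAP2 and CBX5 lost the adjusted p under 0.05 with the replicate block and when any library other than NC library 3 was left out. In those fits 0 genes of the whole table passed, so those fits cannot show whether these 2 calls would hold. HIBADH, SNX11, CALCOCO2, ATP5MC2, CALCOCO1, SMUG1, LNPK, MTX2 and HNRNPA3 did not pass, and EVX1, EVX2, SNX10, SKAP1 and TTLL6 were near 0. EVX1 and EVX2, which adjoin HOXA13 and HOXD13 and belong to the same ancestral array, were at 0 and 0.03 FPKM in NC.

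Of the 9 DNA-binding cofactors of the TALE class, 7 were tested and 0 had an adjusted p under 0.05 (edgeR, 0 at an unadjusted p), with a median log2 fold change of -0.15. PBX2 (15.3 FPKM in NC), MEIS3 (11.5) and PBX3 (7.69) were the highest. RNA of PBX and MEIS partners was thus present.

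Among 18 MLL (Trithorax) and other activators of HOX genes, 17 were tested, 1 was higher and 0 lower at an adjusted p under 0.05 (3.08% of all genes in either direction), and 8 were higher and 1 lower at an unadjusted p under 0.05 (12.0% and 13.2% of all genes). The median log2 fold change was 0.36, beside -0.02 over all genes. KDM6A, a demethylase that removes the Polycomb mark, rose from 1.05 ± 0.07 to 1.75 ± 0.08 FPKM (0.65 ± 0.11, edgeR, adjusted p = 0.0344), and AFF4, PSIP1 and WDR5, the highest by level, did not pass (0.36, -0.28 and -0.12).

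Of 25 Polycomb genes, 24 were tested and 0 passed (edgeR, 2 higher and 2 lower at an unadjusted p, where all genes gave 12.0% and 13.2%), with a median of -0.08. PHC2 (39.9 FPKM in NC), RING1 (20.8) and PCGF1 (20.2) had the highest levels, with log2 fold changes of 0.03, 0.16 and -0.09.

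Retinoic acid switches on 3′ HOX genes through RAR and RXR receptors, and CDX factors act on the middle of the clusters. Of 17 such genes 8 were tested, 2 were lower and 0 higher at an adjusted p under 0.05, beside 3.08% of all genes in either direction. ALDH1A3, an enzyme that makes retinoic acid, had 118.26, 117.47 and 109.48 FPKM in NC and a mean of 59.8 ± 1.77 in the other group, without overlap, and fell by 1.03 on the log2 scale (SE 0.12, edgeR, adjusted p = 0.0205). RARG, a retinoic acid receptor, went from 9.97 ± 1.22 to 6.08 ± 0.59 FPKM (-0.79 ± 0.12, edgeR, adjusted p = 0.0306), and RXRB, the other gene of high level, had a log2 fold change that did not pass (0.33 ± 0.21). The median log2 fold change of the 8 was 0.10, with 3 below 0 and 5 above. Of HOX paralog groups 2 and 3, the tested genes were HOXB2 (-0.24, edgeR, adjusted p = 0.346), HOXA3 (-0.19, 0.723) and HOXB3 (-0.11, 0.807), and none passed. A tie between the retinoic acid genes and the HOX genes was not tested. CDX1, CDX2 and CDX4 were near 0.

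Of 8 CTCF and cohesin genes, which shape the loops of the clusters, 8 were tested, 1 was higher and 0 lower at an adjusted p under 0.05, beside the same 3.08% of all genes. NIPBL, the cohesin loader, rose from 5.77 ± 0.93 to 9.92 ± 0.20 FPKM (0.70 ± 0.12, edgeR, adjusted p = 0.0352), and RAD21 (-0.14), WAPL (0.22) and STAG2 (-0.25) did not pass. KDM6A, ALDH1A3, RARG and NIPBL kept their direction in all fits. They lost the adjusted p under 0.05 with the replicate block and when any library other than NC library 3 was left out. In those fits 0 genes of the whole table passed, so those fits cannot show whether these calls would hold. KDM6A and RARG also lost it with limma.

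Transcription factors of the forebrain and midbrain, where HOX genes are off in the embryo, were mostly low or absent. Of the 18, 10 had at most 3 counts in each library and 2 reached a mean of 1 FPKM in NC. Of 18, 3 were tested and 0 passed (edgeR, 1 lower at an unadjusted p). DLX1, a factor of forebrain interneurons, was at 2.36 FPKM in NC (log2 fold change -0.06 ± 0.15), and HESX1 at 0.62 and 1.09, while OTX2, EMX2, SIX3, EN1 and EN2 were listed at 0 in every library. RNA of DLX1 and of HOX genes up to group 13 was thus found in the same libraries, and bulk RNA does not show whether it came from the same cells.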

How the data were processed

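RNA of U87-MG cells was sequenced in 6 libraries, grouped by their titles into NC and GRIK1 siRNA (3 each). The authors deposited whole-number counts per gene, without normalization, and FPKM values computed from those counts by library total and exonic length. The formula gave 100% of the deposited FPKM values within 0.005. The submitters' processing notes name cutadapt 1.9.1, HISAT2, HTSeq and GRCh38. Versions of HISAT2 and HTSeq, the strand setting and the annotation are not given in the sources used here. All 61806 genes have an identifier, and 0 columns were left unassigned.

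The HOX genes and the other gene lists were chosen with earlier results of these data known. Differences were fitted with edgeR 4.0.16 by quasi-likelihood (R 4.3.3, TMM scaling, no covariate) on the counts of 15868 genes with a mean FPKM of at least 0.5, with Benjamini-Hochberg adjustment over all of them. Calls were set at an adjusted p under 0.05 with a log2 fold change beyond 1 in either direction. Errors of fold changes are SE, with 95% intervals. The fit was tested on simulated data, where edgeR recovered 168 of 200 genes set to a log2 fold change of 2 in either direction, with 7 false calls. The simulation held no library that stood apart as NC library 3 did. Alternatives were DESeq2 1.42.0, limma 3.58.1 on log2(FPKM + 1) and log2(FPKM + 0.1), RLE scaling, no filter, a filter at a mean FPKM of 1, a replicate block, leaving out each library, a fold threshold of 1.5 and, chosen after seeing the data, filterByExpr and robust fitting. Named genes were every HOX gene, GRIK1, each row in a cluster with a mean FPKM of at least 0.5, the flanking genes, and of each list the members with an adjusted p under 0.05 and the 3 highest. Other list members and cell type markers named beside them were chosen after their values were seen. Homeobox, promoter and microRNA sequences came from GENCODE 29 and RefSeq, and windows without an entry were not analysed here. Python 3.11.15, pandas 2.3.3, numpy 2.4.6 and scipy 1.17.1 were used. Values of 1 tested HOX gene and of some list members are not reported here, and the counts include them.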

Additional observations from a re-analysis of the deposited data

How the results depend on the processing

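The number of HOX genes that were lower at an adjusted p under 0.05 was 0 in the fit reported, 1 without the filter, 2 with DESeq2 and 0 to 8 when a library was left out. The 8 came without NC library 3. Leaving out any other library left 0 genes of the whole table at that threshold, so those fits could give no HOX gene. The counts of HOX genes higher or past the fold threshold kept to 0 in all settings run, and leaving out a library gave 16 to 18 genes at 1 FPKM in NC. Same-numbered libraries did not deviate together (correlations -0.07, 0.04 and -0.04), so the numbers were not taken as pairs. With the replicate block, 0 HOX genes passed, and 0 genes of the whole table did. Of the values of 19 genes under other settings, 246 kept their direction and side of the threshold, 11 passed it (8 genes) and 25 turned in sign (8 genes). Values from the replicate block, and from leaving out a library other than NC library 3, could not pass the threshold. For them only the direction could change. The sign turned for HOXA4 with limma at a pseudocount of 0.1 (0.0052), HOXB3 with limma (0.022 and 0.041 with pseudocounts of 1 and 0.1), HOXD11 with a mean FPKM of at least 1 (0.015) and with limma (0.069 and 0.082), HOXB5, HOXD4 and HOXD9 without the filter (-0.017, -0.015 and -0.022), and HOXD9 with the replicate block (-0.0070) and filterByExpr (-0.0020). When a library was left out, the log2 fold change ranged from -0.48 to 0.0068 for HOXA3, -0.24 to 0.089 for HOXA4, -0.37 to 0.043 for HOXB3, -0.44 to 0.48 for HOXB5, -0.070 to 0.48 for HOXC8, -0.29 to 0.19 for HOXD4, -0.21 to 0.099 for HOXD9 and -0.094 to 0.11 for HOXD11. The cause of the changes was not tested. Depth limits the 19 genes below the filter, with at most 24 counts in a library.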
